A study of Homo sapiens with 3 samples.

Results

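The transcription factor NANOG and 8 genes linked to pluripotency were followed across 3 RNA sequencing libraries of CaSki cells, an established human line from an epidermoid carcinoma of the cervix. The 9 genes are NANOG itself, its partners POU5F1 (which encodes OCT4) and SOX2, the reprogramming factors KLF4 and MYC, and SALL4, DNMT3B, LIN28B and HMGA2. They were taken by symbol from the 23277 symbols with a value, and all 9 were found. The first library came from cells with the empty retroviral vector pMSCV and an siRNA against GFP, which serves as control siRNA. The second came from cells carrying FLAG-tagged NANOG in the same vector, also with the GFP siRNA, and the third from NANOG-expressing cells in which the siRNA was directed at HDAC1, a histone deacetylase of corepressor complexes. The study looked for genes controlled by NANOG together with HDAC1. The labels do not say whether the cells were a clone or a pool, or how long NANOG had been expressed. Each group had 1 library, so differences below have no replicate check and no test. The genes were chosen by name, with their FPKM values in these libraries and the differences between them known, so those values are given as a description.

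In embryonic stem cells NANOG, OCT4 and SOX2 bind many of the same regulatory regions, their own among them, and hold each other's genes active. KLF4 and MYC were used with OCT4 and SOX2 to reprogramme somatic cells, and both also work in ordinary epithelium, KLF4 in differentiating squamous cells and MYC in growth. SALL4 is a zinc finger factor of stem and germ cells that recruits histone deacetylase complexes, and DNMT3B places new DNA methylation. LIN28A and LIN28B block the maturation of let-7 microRNAs, which repress HMGA2, a chromatin architectural protein of embryonic tissue and many tumours, as well as MYC and the LIN28 genes.

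RefSeq (build GRCh38.p14) gave promoter sequences for 5 of the 9 genes. The NANOG promoter is shown because its own partners act on it through a joined octamer and SOX site. The levels of those partners are given below, and whether they bear on the native NANOG gene in these cells was not tested. The KLF4 promoter is shown for comparison, as KLF4 was among the abundant genes. Both run 5′ to 3′ on the gene's strand over the 250 bases before the transcription start, NANOG at chr12:7789152-7789401 on the plus strand and KLF4 at chr9:107489770-107490019 on the minus strand. Capitals mark the octamer-SOX element in NANOG and an E-box, the site type of MYC and its partners, in KLF4.
NANOG: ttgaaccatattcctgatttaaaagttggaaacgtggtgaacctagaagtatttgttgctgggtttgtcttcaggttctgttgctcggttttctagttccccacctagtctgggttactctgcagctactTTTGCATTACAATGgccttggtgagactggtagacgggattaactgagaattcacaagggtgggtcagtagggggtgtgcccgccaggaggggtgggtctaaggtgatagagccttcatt
KLF4: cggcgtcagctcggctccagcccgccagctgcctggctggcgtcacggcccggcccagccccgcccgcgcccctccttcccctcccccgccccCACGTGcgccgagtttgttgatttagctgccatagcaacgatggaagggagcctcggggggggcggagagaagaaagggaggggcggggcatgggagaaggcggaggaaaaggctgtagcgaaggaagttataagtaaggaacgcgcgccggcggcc

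Motifs were searched on both strands in the same 250-base window of 35116 promoters, with letters written when the NANOG promoter was already in view. The octamer-SOX element, searched as the octamer core ATGCAAA read on the other strand, then any base, then the SOX core ACAATG, was found in 2 of them (0.0057%), NANOG and NRARP, the latter named after the search. In NANOG it lies 120 to 107 bases before the start and includes the only match there to the octamer core, which 3.94% of promoters hold, and to the SOX core, which 9.29% hold. The SOX2 promoter also held 1 octamer core, and 1 of the 2 LIN28B promoters 1 SOX core. The E-box CACGTG was found once in KLF4 and once in the other LIN28B promoter, against 6.34% of all promoters. The KLF core GGGTGTG (6.63% of promoters) had 1 match in NANOG and 1 in the LIN28B promoter with the SOX core. The homeodomain core TAATNG, the kind of site that NANOG recognises, matched only in 1 LIN28B promoter among these 5 genes (17.0% of all promoters). The searched letters had no match in the DNMT3B window.

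The let-7 microRNAs are shown because HMGA2, MYC and LIN28B are among their known targets. All 9 mature let-7 and miR-98 sequences of the 5p arm in RefSeq share the seed GAGGUAG (bases 2 to 8, in capitals), as do 11 of 2370 mature entries in all, and 3 are printed as examples.
let-7a-5p: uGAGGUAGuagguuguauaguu
let-7g-5p: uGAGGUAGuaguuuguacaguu
miR-98-5p: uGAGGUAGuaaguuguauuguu
The 12 hairpin genes behind these microRNAs were listed at 0 in all 3 libraries, and mature microRNAs were not measured here.

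Values were taken as FPKM, fragments per kilobase of transcript scaled to the mapped fragments of the library. The unit is inferred from Cufflinks being named and from the values, as the file headers name only the sample. On this scale levels can be compared between genes. Low values fell on steps. The step was fitted on genes with 1 annotated transcript that was not short. Their values under 0.3 FPKM worth up to about 6 fragments were used, 257 to 308 per library. Of these, between 66.1% and 70.3% came within 0.1 of a whole number of fragments. Evenly spread values would give 20% without fitting. As the step was fitted to these same values, the share is no test of it. The step put the depth at about 28800000 mapped fragments with the empty vector, 29300000 with NANOG and the GFP siRNA, and 29500000 with NANOG and the HDAC1 siRNA. Fragment numbers below are estimates from this step and a gene's shortest and longest transcript linked to RefSeq in GENCODE, and they cover counting error only. Differences are of log2(FPKM + 1), and genes count as measured at a mean of 1 FPKM or more (11406 genes over the 3 libraries).

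**Figure D1:**
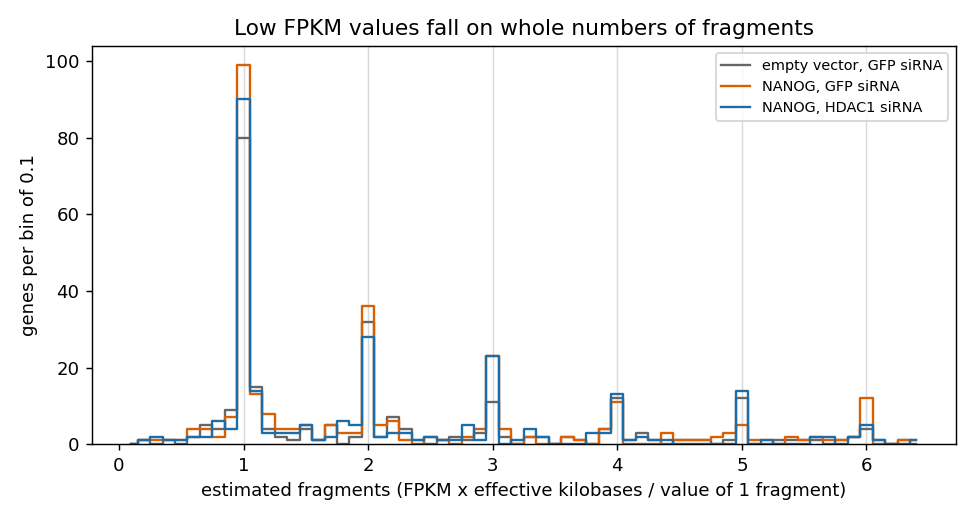
Number of genes (vertical axis, per bin of 0.1) by estimated fragments (horizontal axis), for genes with 1 annotated transcript and values under 0.3 FPKM, 1 line per library. The value of 1 fragment was fitted so that low values were whole. All 3 lines peak at whole numbers, highest at 1 fragment.

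All 8 squamous epithelial markers, keratin genes among them, were measured, and their summed level was 2586, 2490 and 2215 FPKM in the order empty vector, NANOG with GFP siRNA, NANOG with HDAC1 siRNA. Single markers went opposite ways, KRT5 being highest with NANOG and GFP siRNA (555, 959 and 540 FPKM), as was KRT6A, and KRT17 lowest there (1359, 917 and 1065 FPKM), as was KRT14. Of the 9 embryonic stem cell markers none was measured, and DPPA4, TDGF1, ZFP42 and PRDM14 were listed at 0 in all libraries. Their sums were 0.633, 0.337 and 0.421 FPKM, with POU5F1 the largest part. The 6 fibroblast markers summed to 4.03, 4.75 and 2.73 FPKM, mainly COL1A1. Of the 4 blood cell markers only CD68, a lysosomal gene that many cells express, was measured. HDAC1, the siRNA target, stood at 19.02, 108 and 12.8 FPKM, so that the NANOG GFP siRNA library was the high one and the other libraries lay closer together. Its part in the differences below was not tested.

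NANOG followed the labels. It stood at 0.0357 FPKM with the empty vector, a value worth between 0.73 and 5.2 fragments for transcripts of 870 to 5183 bases. In the NANOG cells it reached 298 FPKM (GFP siRNA) and 325 FPKM (HDAC1 siRNA), ranks 219 and 200 from the top among all symbols other than small RNAs. Both NANOG libraries were thus high and close to each other, with a ratio of 1.09. On the log2 scale the difference from empty vector was 8.17 with GFP siRNA and 8.30 with HDAC1 siRNA, and 0.12 between the NANOG libraries (up to 0.31 over the alternatives). With so few fragments in the control the pseudocount sets the size of the first, which was 9.12 with 0.5 FPKM and 11.10 with 0.1 FPKM, so it is no estimate of the fold. NANOG was the only 1 of the 6 measured genes of the group at least 2-fold higher with NANOG than with empty vector. By that much 0.675% of all measured genes were higher and 1.22% lower (1.89% in all). NANOG was introduced by the vector, so its difference checks the labels only. Reads of the introduced cDNA, the native gene and its processed copies cannot be told apart in a gene-level value, and the labels do not give how much of the transcript the insert holds. NANOG exceeded MYC by 3.64 times and KLF4 by 7.29 times in FPKM with GFP siRNA.

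The partners POU5F1 and SOX2, and LIN28B, remained under 1 FPKM in every library and passed no filter. POU5F1 had 0.462 FPKM in the control cells, 0.151 FPKM in NANOG cells under GFP siRNA and 0.237 FPKM in those under HDAC1 siRNA. These values correspond to 14 to 28, 4.8 to 9.4 and 7.5 to 15 fragments, depending on the transcript. POU5F1 was highest in the empty vector library, by 3.06 times over the NANOG GFP siRNA library, on few fragments. Its retrocopies are near-identical in sequence, so single fragments are uncertain between them. POU5F1B was at 0.0243, 0.0238 and 0.0715 FPKM, POU5F1P3 at 0.0366 FPKM only with NANOG and GFP siRNA, and POU5F1P4 at 0.0373 FPKM only with the empty vector. NANOGNB, a neighbouring homeobox gene, was listed at 0 throughout. The copies NANOGP1 and NANOGP8 were not analysed here.

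SOX2 was listed at 0 in the control cells and had 0.0289 and 0.0145 FPKM in the NANOG cells, under GFP and HDAC1 siRNA. For its single transcript of 2513 bases this is 2 fragments and 1 fragment. LIN28B was listed at 0, at 0.00638 FPKM and at 0.00638 FPKM in the same order, or 1 fragment in each NANOG library for a transcript of 5505 bases. LIN28A, its relative, had 2 fragments in each library with GFP siRNA and was listed at 0 with HDAC1 siRNA. At this depth no difference between libraries was detectable for SOX2 or either LIN28 gene.

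**Figure D2:**
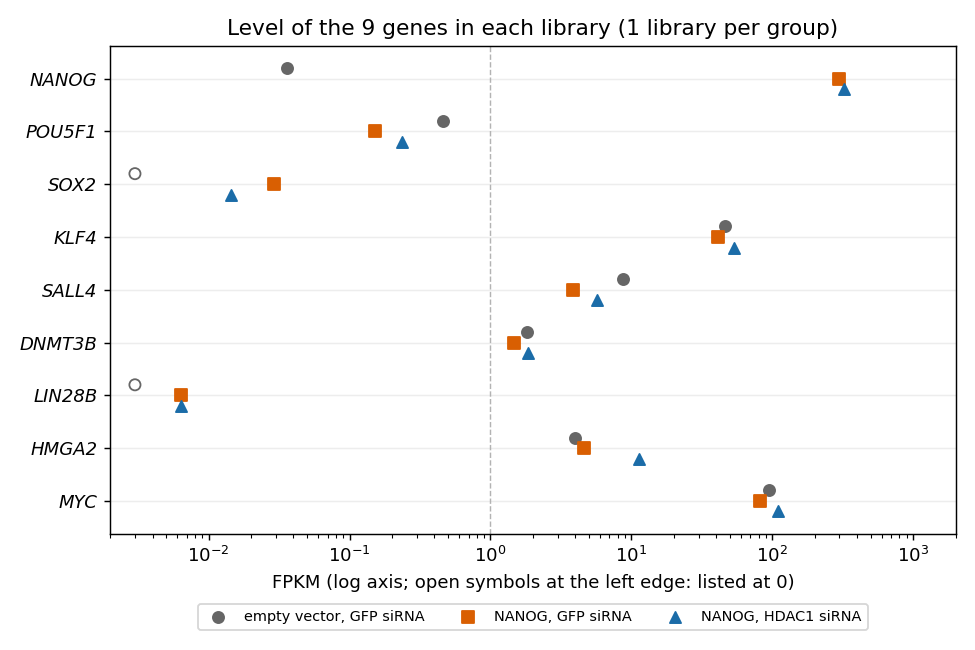
FPKM of the 9 genes (horizontal axis, logarithmic; open symbols at the left edge are listed at 0) in the 3 libraries, 1 point per library; the dashed line is at 1 FPKM. NANOG alone moves from the low to the high end, POU5F1, SOX2 and LIN28B stay under 1 FPKM, and HMGA2 is highest with HDAC1 siRNA, at 11.3 FPKM.

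KLF4 and MYC were the abundant genes of the group without any introduced copy. KLF4 had 46.6 FPKM in the control cells, 40.9 FPKM in NANOG cells and 53.6 FPKM once HDAC1 was targeted too, from about 3197 to 4200 fragments. MYC had 94.5, 81.8 and 109 FPKM in these libraries, from about 5322 to 7123 fragments. Both were lowest with NANOG and GFP siRNA and highest with HDAC1 siRNA, and MYC kept a level of 2.03, 2.00 and 2.04 times that of KLF4. The difference of NANOG from empty vector was -0.18 for KLF4 and -0.21 for MYC, and 27.6% and 25.2% of all measured genes had a lower one. The difference of HDAC1 siRNA from GFP siRNA was 0.38 for KLF4 and 0.41 for MYC, and 3.02% and 2.21% of measured genes had a higher one. Counting error, about 1.2% to 1.8% per value, is small beside these differences, but the spread between cultures is unknown.

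SALL4 had the lowest difference of the 9 genes with NANOG. Its level was 8.66 FPKM in the control cells, 3.86 FPKM in NANOG cells and 5.73 FPKM in NANOG cells under HDAC1 siRNA. The empty vector library was highest and the HDAC1 siRNA library stood between the others. The estimated fragments were 438 to 1259, 200 to 573 and 297 to 853. NANOG minus empty vector gave -0.99, just short of 2-fold on this scale although the FPKM themselves differed by 2.24 times; with a pseudocount of 0.5 FPKM it was past 2-fold. Of the 11406 measured genes 143 had a lower difference, as had 48 of the 3900 genes within 2-fold of its mean level. HDAC1 siRNA minus GFP siRNA gave 0.47, and 159 measured genes had a higher difference. The relatives SALL1, SALL2 and SALL3 had at most 0.00696 FPKM in any library.

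DNMT3B was low, at 1.81 FPKM in the control cells, 1.48 FPKM in NANOG cells and 1.84 FPKM in NANOG cells under HDAC1 siRNA. The estimated fragments were 112 to 218, 94 to 182 and 117 to 227, with a counting error of 6.6% to 10% per value. Differences were -0.18 and 0.19, the latter up to 0.36 over the alternatives. A share of 27.9% of measured genes was lower in the first comparison and 14.8% higher in the second, so DNMT3B stood well inside the spread of all genes. DNMT1, which copies methylation at replication, was at 38.4, 40.3 and 37.0 FPKM, and the other de novo enzyme DNMT3A at 1.87, 2.57 and 2.14 FPKM. Its cofactor DNMT3L of germ and stem cells had 0.0224, 0.0659 and 0.132 FPKM, an estimated 6.0 fragments at most. Of the 8 measured genes of DNA methylation and demethylation 0 passed 2-fold in any comparison.

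KLF4, SALL4, DNMT3B and MYC each had their lowest value in the NANOG GFP siRNA library. That library enters both differences with opposite sign, so the pair of values of a gene is not 2 independent observations.

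HMGA2 was the only 1 of the 6 measured genes of the group at least 2-fold higher with HDAC1 siRNA than with GFP siRNA in NANOG cells. It had 4.01 FPKM in the control cells, 4.63 FPKM in NANOG cells and 11.3 FPKM in NANOG cells under HDAC1 siRNA. The libraries with GFP siRNA lay close together and the HDAC1 siRNA library apart from both, 2.44 times above NANOG with GFP siRNA and 2.82 times above empty vector. For transcripts of 611 to 4473 bases the values stand for 52 to 498, 63 to 587 and 150 to 1439 fragments, and the counting error of the lowest value is 4.5% to 14%. The log2 difference was 0.17 for NANOG and 1.13 for HDAC1 siRNA. By HDAC1 siRNA 0.0877% of measured genes were at least 2-fold higher and 0.21% lower (0.298% in all). Of the 7 genes with a higher difference than HMGA2, 6 were listed at 0 in 1 library or more, which can be a failed estimate, and the other was the chemokine gene CCL20. Of the 4024 genes within 2-fold of the mean level of HMGA2, 1 had a higher difference. Under TPM scaling, which moved the median of all genes in this comparison from 0.01 to 0.18, the difference of HMGA2 was 1.35, and the calls over all genes went from 10 higher and 24 lower to 21 higher and 16 lower. Its relative HMGA1, an abundant gene, was at 376, 408 and 423 FPKM, 93.6, 88.04 and 37.4 times the level of HMGA2.

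**Figure D3:**
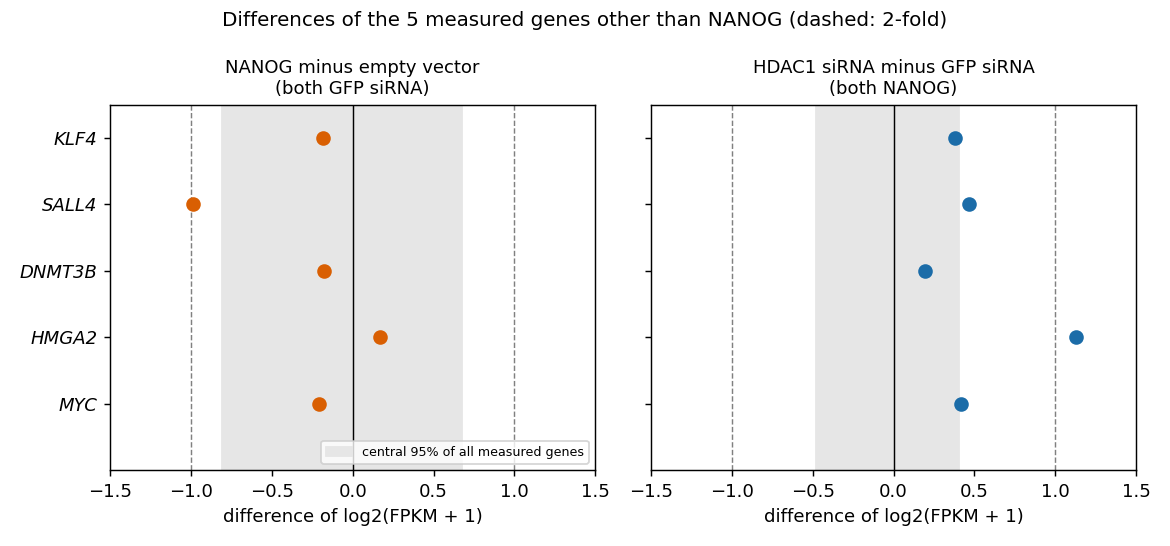
Difference of log2(FPKM + 1) (horizontal axis) for the 5 measured genes other than NANOG, 1 point per gene, for NANOG minus empty vector (left) and HDAC1 siRNA minus GFP siRNA (right); grey marks the central 95% of 11406 measured genes and dashed lines 2-fold. SALL4 lies outside the grey range on the left at -0.99 and HMGA2 on the right at 1.13, with SALL4 and MYC just above its edge on the right.

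NANOG cells with HDAC1 siRNA were also set against empty vector cells, which share neither vector insert nor siRNA, so the effects of both cannot be told apart. Of the 6 measured genes of the group, NANOG and HMGA2 (1.29) were at least 2-fold higher, beside 0.368% of all measured genes. None of the 6 was at least 2-fold lower, beside 0.824% of all measured genes. TPM scaling changed these calls over all genes from 42 higher and 94 lower to 70 higher and 78 lower. SALL4 was lower by -0.52 on the log2 scale, KLF4 differed by 0.20, MYC by 0.21 and DNMT3B by 0.01. Over the alternatives the highest values were 0.34 for KLF4, 0.35 for MYC and 0.12 for DNMT3B. The first and second comparison share a library with this one.

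Genes of the wider pluripotency network were mostly low. Of 42 listed, among them POU5F1, SOX2, KLF4, SALL4 and DNMT3B, 30 averaged under 1 FPKM, 13 of these being listed at 0 in all libraries, and 12 were measured. None passed 2-fold in any comparison, and the median difference was -0.20 with NANOG and 0.16 with HDAC1 siRNA, against -0.01 and 0.01 over all measured genes. Without KLF4, SALL4 and DNMT3B the medians of the other 9 were -0.21 and 0.05. For the whole list the median with HDAC1 siRNA was 0.09 with a filter at 5 FPKM and 0.33 under TPM scaling (0.18 for all measured genes), and with no filter both medians were 0. Those with the largest differences were SALL4, STAT3, JARID2 and KLF4. STAT3, the signal transducer of LIF in mouse stem cells, was at 69.0, 47.8 and 60.3 FPKM, a difference of -0.52 with NANOG and 0.33 with HDAC1 siRNA. JARID2, a Polycomb component, was at 25.7, 18.6 and 20.4 FPKM.

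Within its family KLF4 was an abundant gene, and within its own SOX2 was near 0. Of 17 KLF genes 9 were measured, 7 of them lower with NANOG (median -0.24) and 9 higher with HDAC1 siRNA (median 0.23), where 50.8% of all measured genes were lower with NANOG and 53.4% higher with HDAC1 siRNA. None passed 2-fold. Without KLF4 the medians were -0.42 and 0.17. For the whole list they were -0.09 and 0.06 with no filter on low values. Under TPM scaling the second was 0.41, against 0.18 over all measured genes. KLF3 was at 22.1, 11.3 and 17.4 FPKM (-0.90 with NANOG), KLF13 at 14.2, 7.63 and 9.77 FPKM (-0.81), KLF7 at 8.65, 4.59 and 4.84 FPKM (-0.79) and KLF6 at 30.5, 19.8 and 26.6 FPKM (-0.60). KLF10, a gene induced by TGF-beta, went the other way, at 47.2, 72.1 and 72.6 FPKM (0.60). The level of KLF4 was 1.42, 1.33 and 1.70 times that of KLF5, another regulator of epithelial cells, highest with HDAC1 siRNA. Of 19 SOX genes 6 were measured, none past 2-fold, with medians of 0.04 and -0.03. The first changed sign with a filter at 5 FPKM, to -0.17. The second changed sign under TPM scaling, to 0.14, but there the median of all measured genes moved from 0.01 to 0.18. The second thus lay just below the median of all measured genes in both settings. SOX15 was the most abundant, at 170, 139 and 173 FPKM, and SOX9, a factor of cartilage and of several epithelia, was at 15.0, 14.6 and 10.8 FPKM. Of 15 POU genes only the ubiquitous POU2F1 was measured, at 3.60, 3.13 and 3.28 FPKM. In the group of HMGA, HMGB and HMGN genes 8 of 9 measured genes were higher with NANOG (median 0.47). Over all measured genes 49.2% were higher and the median was -0.01. HMGN2 was at 455, 681 and 649 FPKM. With HDAC1 siRNA 6 of the 9 were lower, where 46.6% of all measured genes were lower. Their median was -0.10, and 0.08 under TPM scaling, against 0.18 over all measured genes.

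**Figure D4:**
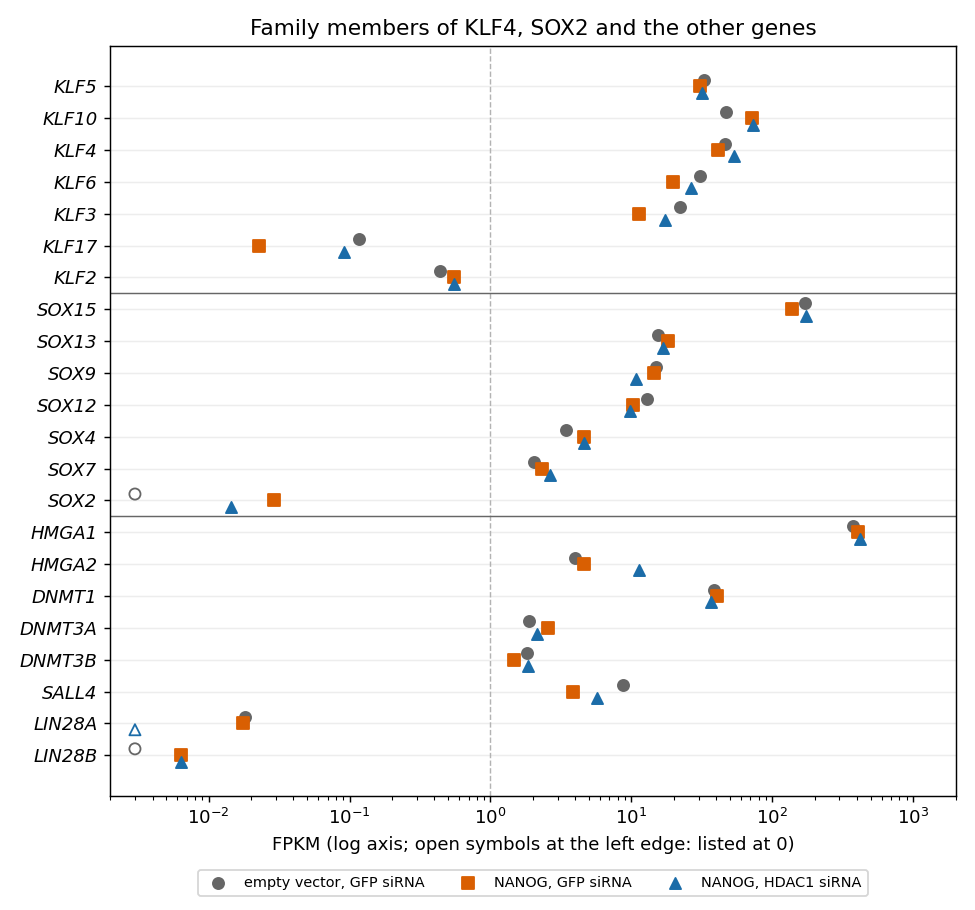
FPKM (horizontal axis, logarithmic; open symbols at the left edge are listed at 0) of KLF genes, SOX genes and the HMGA, DNMT, SALL and LIN28 genes in the 3 libraries, 1 point per library; the dashed line is at 1 FPKM. SOX15, at 139 to 173 FPKM, and HMGA1, at 376 to 423 FPKM, stand far above SOX2 and HMGA2.

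Genes of the LIN28 and let-7 pathway gave the following picture. Of 14 processing genes 11 were measured, 0 past 2-fold. Their medians were 0.00 and -0.05 (0.13 for the latter under TPM scaling, against 0.18 over all genes). AGO2, the slicing Argonaute protein, listed under its older symbol EIF2C2, was at 16.0, 8.67 and 13.6 FPKM, a difference of -0.81 with NANOG and 0.60 with HDAC1 siRNA. DROSHA and DGCR8, which together cut primary microRNAs, differed by 0.00 and -0.15 with NANOG and by -0.05 and -0.05 with HDAC1 siRNA. Of 27 known let-7 target genes, HMGA2, MYC and LIN28B included, 19 were measured. With NANOG 7 were higher and 12 lower (median -0.12, and 0 past 2-fold). Over all measured genes 50.8% were lower and the median was -0.01. With no filter the list's median was also -0.01. With HDAC1 siRNA 14 were higher and 5 lower, where 53.4% of all measured genes were higher. The list's median was 0.21, against 0.01 over all genes, and 0.39 against 0.18 under TPM scaling. HMGA2 was the only 1 of the 19 past 2-fold. Without HMGA2 and MYC the median of the other 17 was 0.13, and with no filter on low values that of all was 0.03. CDK6, a G1 kinase, was at 19.2, 10.9 and 17.2 FPKM, and CDC25A, a phosphatase that activates such kinases, at 10.02, 9.15 and 14.4 FPKM. IGF2BP3, an oncofetal RNA-binding protein, was at 9.97, 16.5 and 16.5 FPKM, higher in both NANOG libraries.

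**Figure D5:**
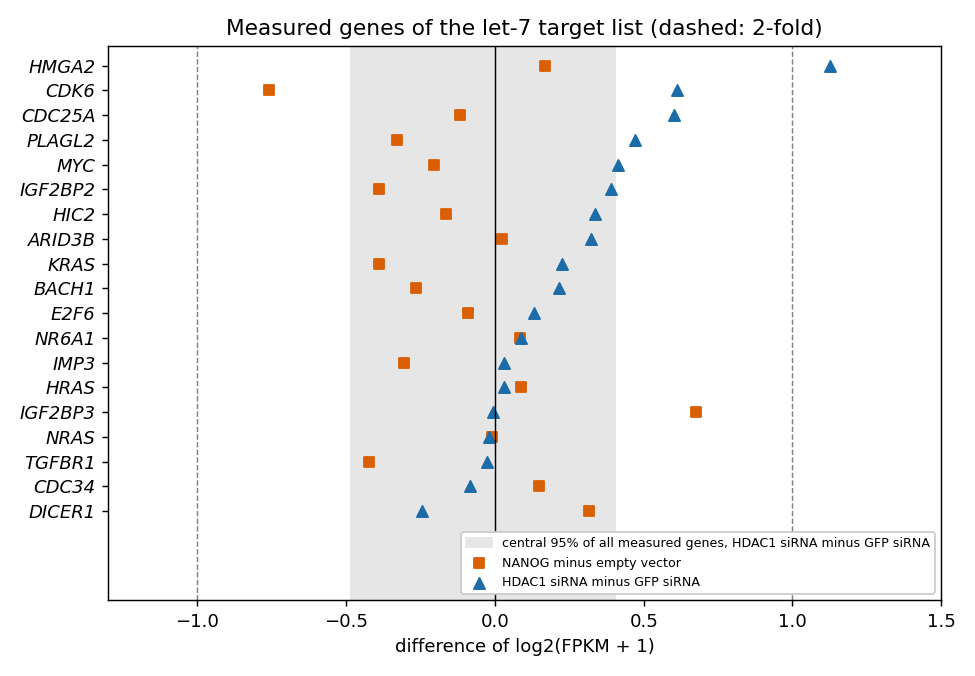
Difference of log2(FPKM + 1) (horizontal axis) for the 19 measured let-7 target genes, squares for NANOG minus empty vector and triangles for HDAC1 siRNA minus GFP siRNA; grey marks the central 95% of all measured genes in the latter comparison. HMGA2 alone lies past 2-fold, at 1.13, and 14 triangles lie above 0, as did 53.4% of all measured genes.

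For MYC, its network and target genes were examined as well. Of 17 network genes 15 were measured, with medians of -0.17 and 0.06 (0.23 for the latter under TPM scaling, against 0.18 over all genes). MXI1, a MAX partner that opposes MYC, was at 19.8, 7.59 and 9.42 FPKM and was the only 1 of the 15 past 2-fold. It differed by -1.28 with NANOG, where 1.22% of all measured genes were at least 2-fold lower. For NANOG cells under HDAC1 siRNA against empty vector it differed by -1.0004, practically on the 2-fold line. In that comparison 0.824% of all measured genes were at least 2-fold lower. MYCN was listed at 0 in all libraries. Of 29 MYC target genes 27 were measured. With NANOG 23 were higher and 4 lower (median 0.23), while MYC itself differed by -0.21. Over all measured genes 49.2% were higher and the median was -0.01. Of the 27, 2 were at least 2-fold higher, against 0.675% of all measured genes. These were ODC1, the first enzyme of polyamine synthesis, at 47.9, 103 and 116 FPKM, and NCL, which encodes nucleolin, at 135, 474 and 122 FPKM. RRP9, a factor of ribosome assembly, was at 11.2, 22.1 and 20.7 FPKM and the lactate dehydrogenase gene LDHA, which hypoxia also induces, at 2524, 1369 and 1377 FPKM. With HDAC1 siRNA the median was 0.01 (0.19 under TPM scaling, against 0.18 over all genes) and only NCL, whose other values lay close together, passed 2-fold, by -1.95.

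Genes most like each measured gene were taken by the distance between their 2 differences, over 3 libraries and the 8465 genes that averaged 5 FPKM or more. HMGA2 had 0 genes within a distance of 0.1. The nearest was IL8, an inflammatory chemokine gene, at 37.2, 43.3 and 86.3 FPKM (distance 0.16). TRAF1 (0.52) and TNFAIP3 (0.55), both genes of NF-kB signalling, came next but were not close. With HDAC1 siRNA they differed by 0.64 and 0.70, against 1.13 for HMGA2, so neither passed 2-fold. SALL4 had 15 within that distance. Its nearest were ERRFI1, an inhibitor of the EGF receptor, at 50.2, 24.9 and 33.9 FPKM, the ubiquitin ligase gene NEDD4 at 32.3, 15.9 and 23.03 FPKM, and GPR1 at 18.7, 9.29 and 13.2 FPKM. KLF4 had 91 such genes (nearest BCAT2, PPP2R1B and ACBD6), MYC had 68 (SLC35D2, LOC100506233 and PODXL2) and DNMT3B had 581 (ISCA1, CAND1 and ZCCHC8), so their patterns were common. NANOG had 0.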

How the data were processed

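Total RNA of 3 CaSki cultures was sequenced, 1 library per group, grouped by sample title. Per the labels' protocols, RNA was prepared with Trizol and 2 ug per sample was used with a stranded TruSeq kit. The submitters' processing notes name TopHat2, Cufflinks and hg19 (annotation and strand handling: not given in the sources used here). What the authors deposited is 1 value per symbol, taken as FPKM. It is already divided by transcript length and library size, so abundant RNAs lower other values. Small RNAs took 16.0% to 23.1% of the FPKM sum, which, as they are short, is not their share of fragments. TPM scaling divides by this sum. Both the sum and the small RNA share were lowest with HDAC1 siRNA (600749 FPKM and 16.0%).

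Differences were of log2(FPKM + 1), which understates changes of low genes, over the 11406 genes averaging 1 FPKM or more, without 1626 small RNA symbols. At least 2-fold was counted, with no test. The 9 genes and the 18 lists were chosen with earlier results of these data known. The lists were written from general knowledge of the families and pathways. Named were family genes differing by 0.58 or more, the 4 largest of other lists (some are not described) and HDAC1, near-identical copies and the 3 nearest by pattern, of which those of NANOG are not reported here. Depth came from 2041 genes with 1 transcript in GENCODE release 29: a length offset (150 to 160 bases) and the FPKM of 1 fragment were fitted so that low values were whole. The step fit and the count were tested on simulated data. For the count these held only genes at 5 FPKM or more, 3-fold and 4-fold changes and an assumed noise. The simulation therefore does not cover lower genes, changes near 2-fold or the unknown spread between cultures. Alternatives were other pseudocounts, filters, scalings and thresholds. Python 3.11.15, numpy 2.4.6, pandas 2.3.3 and matplotlib 3.10.9 were used.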

Additional observations from a re-analysis of the deposited data

How the results depend on the processing

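No paired analysis was possible because each group holds 1 library, and for the same reason no library could be left out. The 6 measured genes kept the sign of their difference in all 3 comparisons under every alternative scaling. The alternatives of pseudocount, filter and small RNAs cannot change a sign, so they are no check of it. A scaling moves all genes of a comparison nearly alike and can change the sign of small differences only, so it is a weak check. A filter at 5 FPKM left DNMT3B without a value. Of 150 recomputed differences of the 9 genes, 129 moved by under 0.1. These include the filters and the setting with small RNAs kept, which leave a gene's own difference unchanged by construction. POU5F1, SOX2 and LIN28B had a value only with no filter, so theirs could not move. The count past 2-fold with NANOG went from 1 to 2, by SALL4, with pseudocounts of 0.5 and 0.1 FPKM, under TPM and at 1.5-fold. Plain FPKM ratios, added after the data were seen, also gave 2 over the 6 measured genes. POU5F1, left out as not measured, was 3.06 times lower in FPKM with NANOG and GFP siRNA than with empty vector. At 3-fold the count was 0 for HDAC1 siRNA and 1 for NANOG with HDAC1 siRNA against empty vector. Over all genes, in the order NANOG, HDAC1 siRNA, both, the counts of 216, 34 and 136 became 354, 69 and 216 with a pseudocount of 0.1 FPKM, 997, 241 and 598 at 1.5-fold and 53, 11 and 37 at 3-fold; small RNAs kept gave 75 for HDAC1 siRNA. Under TPM the median over all measured genes became 0.18 for HDAC1 siRNA and 0.13 for both. Of the 18 nearest genes by pattern, 10 were found again with no filter on low values. List medians, recomputed after the data were seen, moved by under 0.1 in 230 of 264 cases. Depth limits SOX2, LIN28B and POU5F1, and 1 library per group limits every value.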

Other observations

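Regulators of early embryonic lineages, several of which NANOG holds down in stem cells, were mostly low: of 24 listed, 15 averaged under 1 FPKM, 10 of these being listed at 0 in all libraries, and 9 were measured. None passed 2-fold in any comparison. With NANOG 6 were higher and 3 lower (median 0.10, and 0.02 with a filter at 5 FPKM), where 49.2% of all measured genes were higher. With HDAC1 siRNA 3 were higher and 6 lower, where 46.6% of all measured genes were lower. The median was -0.11, but 0.01 with a filter at 5 FPKM. Under TPM scaling it was 0.02, against 0.18 over all measured genes. The homeobox gene MSX2, a target of BMP signalling, was at 2.22 FPKM with the empty vector, 5.30 FPKM with NANOG and 4.45 FPKM with NANOG and HDAC1 siRNA, and its relative MSX1 at 1.38, 2.49 and 2.12 FPKM. BMP4, a ligand of that pathway, was at 0.874, 1.89 and 1.14 FPKM, and the zinc finger factor GATA2 at 5.17, 8.75 and 7.46 FPKM. MSX2, MSX1, BMP4 and GATA2 were all lowest with the empty vector and highest with NANOG and GFP siRNA. They were named for having the largest differences of the 9, so their shared pattern does not describe the list.

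Of 7 transcription factors of epithelial to mesenchymal transition 2 were measured. SNAI1 was at 1.66, 2.81 and 2.28 FPKM and SNAI2 at 36.4, 45.9 and 37.7 FPKM. Their log2 differences were 0.52 and 0.33 with NANOG, and -0.21 and -0.28 between HDAC1 siRNA and GFP siRNA. These lay inside the central 95% of all measured genes, -0.81 to 0.68 with NANOG and -0.48 to 0.40 with HDAC1 siRNA.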
